A study of Homo sapiens with 2 samples.

Results

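The genes described here encode SR splicing factors (SRSF1, SRSF2, SRSF3, SRSF5, SRSF6, SRSF7 and SRSF11), the related splicing activators TRA2A and TRA2B, and the nuclear speckle protein SON. They were chosen by function and by what was listed in them: a site belonged to a gene when its midpoint lay within the span of that gene in GENCODE release 44, on the strand of the site. By this rule 15 of the 2054 listed YBX1 binding sites lay in these 10 genes. Sites were present in 5 of the 10 genes, with 5 sites in SON, 3 each in SRSF1, SRSF3 and TRA2B, and 1 in SRSF6. No site was listed in SRSF2, SRSF5, SRSF7, SRSF11 or TRA2A. Counted in the same way, 1366 of 20046 protein-coding genes (6.81%) held at least 1 site. Since the 10 genes were selected on the list itself, their count is a description and was not tested.

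The sites come from PAR-CLIP of the RNA-binding protein YBX1 in HEK293 cells, which derive from human embryonic kidney, with 2 replicates that the authors pooled into 1 list. According to the methods, T-REx HEK293 Flp-In cells with stable overexpression of FLAG/HA-tagged YBX1 were used and the FLAG tag was immunoprecipitated, whereas the labels give a YBX1 antibody (D2A11), and no control group was listed. The list gives positions, strands, gene names and annotation classes, with neither reads nor scores, so depth and strength are unknown for every site and no spread between replicates can be given. RNA levels were not analysed here, neither the cell type nor the abundance of the 10 mRNAs could be checked in a list of positions, and the absence of a site does not show the absence of binding.

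SR proteins bind exonic enhancers through RNA recognition motifs and recruit the splicing machinery through domains rich in arginine and serine, and the TRA2 proteins act in the same way on purine-rich enhancers. Many genes of this family limit their own expression by alternative splicing: a poison exon, which carries a premature stop codon, or an intron in the 3′UTR is spliced so that the mRNA is degraded by nonsense-mediated decay (NMD). YBX1 is a cold-shock domain protein that packages mRNA in the cytoplasm and has roles in translation, mRNA stability and splicing. In PAR-CLIP, 4-thiouridine replaces uridine in new RNA and is crosslinked to nearby protein by UV light, and RNase T1, which cuts single-stranded RNA after G, trims the RNA to the protected fragment.

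All 15 site sequences are shown because they are the measurement itself. They were read from the hg38 genome on the strand of the gene, 5′ to 3′, with T in place of U, and are numbered in the direction of transcription. Capitals mark 5 words rich in C and A, searched on the RNA strand only and allowed to overlap: CAAC, then the word AACA, then the word AACT, then the word CATC, then the word CACC.
SRSF1 site 1, chr17:58005242-58005262, minus strand: ctAACATCtacattcccttcg
SRSF1 site 2, chr17:58005167-58005185, minus strand: ttAACTccatactcttcag
SRSF1 site 3, chr17:58004819-58004846, minus strand: attatatacattttccttaaAACActtg
SRSF3 site 1, chr6:36600003-36600028, plus strand: ccttctctcCAACcttaaccaaatcg
SRSF3 site 2, chr6:36602270-36602290, plus strand: ataataaacctctaaacctgc
SRSF3 site 3, chr6:36602483-36602508, plus strand: aaaaatcCAACTctCATCctgggcag
SRSF6 site 1, chr20:43461837-43461855, plus strand: caaatttaAACTatttaag
TRA2B site 1, chr3:185918412-185918431, minus strand: tCACCttctccttactatag
TRA2B site 2, chr3:185917589-185917606, minus strand: acttttaCACCttttacg
TRA2B site 3, chr3:185917213-185917233, minus strand: cataccatacttatatacctg
SON site 1, chr21:33553556-33553576, plus strand: aatcgactgtgacagtttcag
SON site 2, chr21:33554117-33554137, plus strand: atttatctttAACTactcaag
SON site 3, chr21:33554231-33554254, plus strand: atttacCATCtaataataaccttg
SON site 4, chr21:33554687-33554705, plus strand: actcttcattaagatctcg
SON site 5, chr21:33577425-33577447, plus strand: tctctaAACTttattttcaaaag

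Each of the 15 sequences occurred once in the genome, so none has an exact copy elsewhere. Between sites of different genes, the longest run of bases held in common was 8 nt, found in 3 pairs. The SR genes are related in sequence, but the listed sites were not copies of one shared stretch. No site was listed on the opposite strand of any of the 10 genes.

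The sites lay mainly in 3′UTRs. By the main transcript of each gene (its MANE Select transcript), 9 of the 15 sites lay in the 3′UTR (60%, Wilson 95% interval 35.7% to 80.2%), 5 in coding exons (33.3%, interval 15.2% to 58.3%) and 1 in a poison exon. Of the other 2039 listed sites, 946 lay in a 3′UTR (46.4%, interval 44.2% to 48.6%) and 629 in a coding exon (30.8%, interval 28.9% to 32.9%). The intervals cover counting error only, treat sites of 1 gene as separate although they share their source, and overlap in both classes. The poison exon class came before that of retained introns, and no further member site lay in a retained intron of the main transcript, in a 5′UTR or in an intron without an annotated exon. Of the 14 sites within spliced mRNAs, 9 were in 3′UTRs and 5 in coding sequence, against 7.86 and 5.85 if they were spread by length alone over the 5 mRNAs that hold them.

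**Figure D1:**
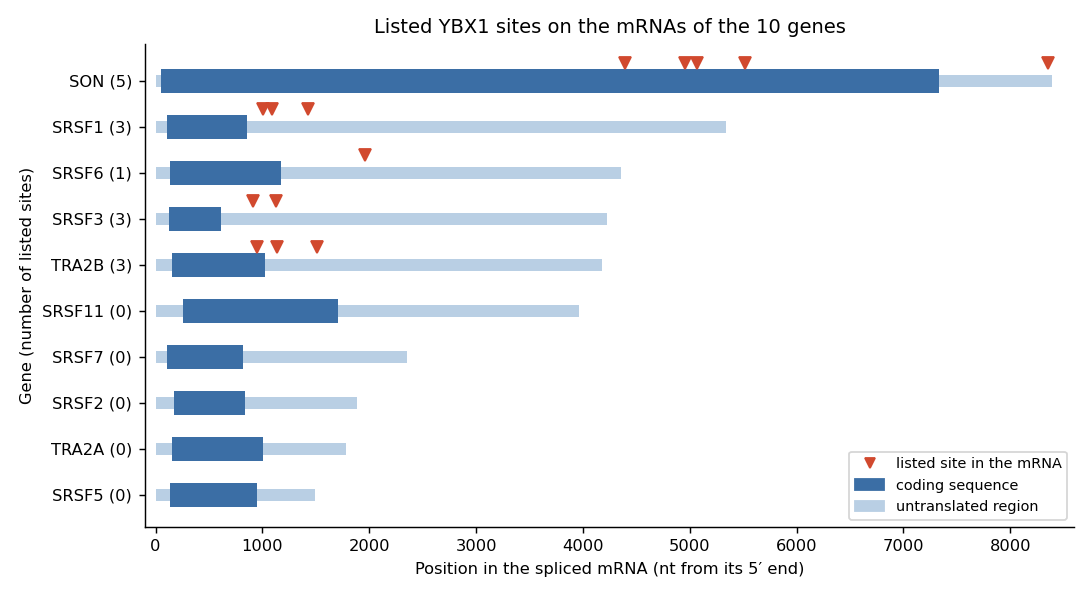
Main mRNA of each of the 10 genes, drawn to scale in nt from the 5′ end, with coding sequence (dark), untranslated regions (light) and listed sites (triangles); the number of listed sites in the gene stands in parentheses. Except in SON, the sites sit near the end of the coding sequence or in the first part of the 3′UTR, and the poison exon site of SRSF3 is not drawn because it is absent from the main mRNA.

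SRSF3 (chr6:36594353-36605600, plus strand), a small SR protein that also acts in mRNA export, carried the only site in a poison exon. Site 1 lay in an exon of 456 nt (chr6:36599821-36600276), the exon 4 of 7 in the NMD isoform SRSF3-203, which is absent from the main transcript SRSF3-202, where its place is taken by an intron of 2168 nt. In SRSF3-203 the reading frame ended 34 nt into this exon, stop codon included, and the site began 149 nt after that stop, with 182 nt of the exon before the site and 248 nt after it. The site therefore lay in sequence that SRSF3-203 does not translate. Exons of the retained-intron transcripts SRSF3-201 and SRSF3-207 also covered it, so the list cannot tell RNA that includes the poison exon from RNA that still holds the intron. The remaining SRSF3 sites lay in the 3′UTR of 3611 nt, starting 281 and 494 nt after the stop codon. Both lay past the annotated end of SRSF3-203, 51 nt after the main stop codon, in the last exon that it shares with SRSF3-202. Whether RNA with the poison exon extends further was not analysed here. The other NMD isoform, SRSF3-204, has its annotated end before this 3′UTR. Both sites were also covered by the retained-intron transcripts SRSF3-205 and SRSF3-207.

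**Figure D2:**
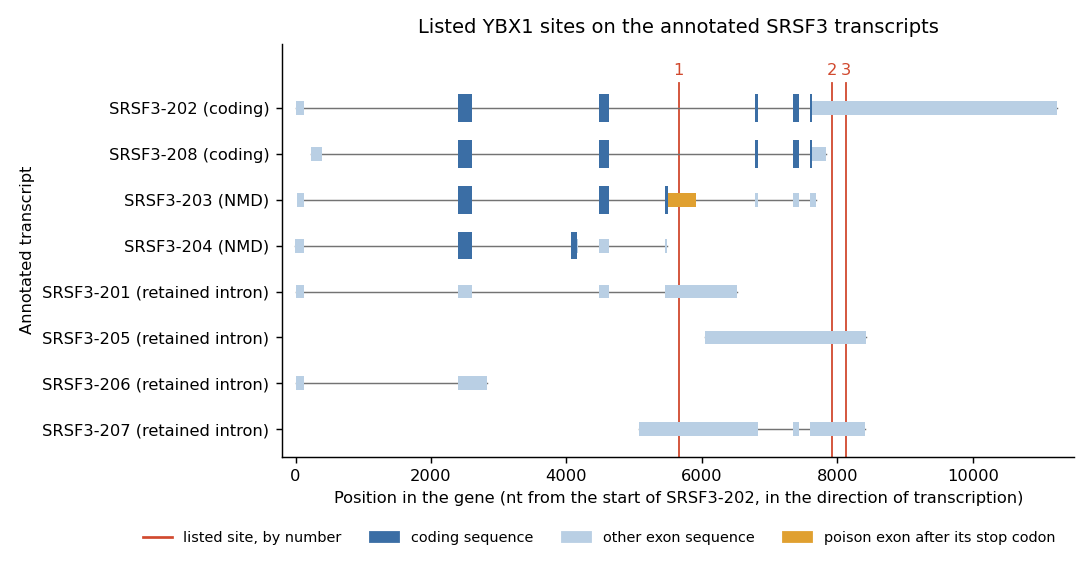
The 8 annotated SRSF3 transcripts in nt from the start of SRSF3-202, with coding sequence (dark blue), other exon sequence (light blue), introns (grey lines) and the poison exon of SRSF3-203 after its stop codon (orange); vertical red lines are the 3 listed sites. Site 1 crosses the orange exon, which no coding transcript holds, and sites 2 and 3 cross the 3′UTR of SRSF3-202.

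A site in a poison exon was rare in the list as a whole. By the same rule 3 of the other 2039 sites (0.147%) lay in a poison exon, in GLA, MELTF and METTL15, and 20 (0.981%) in a retained intron. The poison exon rule took exons of NMD and other noncoding isoforms, also those only partly in an intron of the main transcript. It did not require a stop codon in the exon. All 10 member genes have an annotated NMD isoform and 9 have a retained-intron isoform. NMD isoforms of 8 of them together hold 16 poison exons inside introns of the main transcript, 2782 nt in all, and 1 of these exons held a site. This count is narrower than the rule for sites, since it takes only exons of NMD isoforms that lie wholly in such introns. Exons with different ends were counted apart, so the counts for SRSF7 and TRA2A include overlapping forms of the same exon. The lengths count shared sequence only once. The poison exons of SRSF2 (1 exon, 104 nt), SRSF6 (1 exon, 268 nt), SRSF7 (3 exons, 518 nt), SRSF11 (3 exons, 288 nt), TRA2A (2 exons, 301 nt), TRA2B (1 exon, 276 nt) and SON (3 exons, 473 nt) held none.

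Most sites outside the poison exon lay in sequence that productive and unproductive isoforms share. Exons of an NMD isoform covered 10 of the 15 sites, and in 6 of these the site was 3′UTR of that isoform. Exons of a retained-intron isoform covered 7 sites, and 2 sites were covered by neither kind. If every site in an exon shared with such isoforms is counted, 13 sites fall in NMD or retained-intron transcripts in place of 1. The list gives no way to assign a site in a shared exon to 1 isoform. All these counts rest on where the annotated transcripts end.

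SRSF1 (chr17:58000919-58007346, minus strand), which binds GA-rich exonic enhancers and was first known as a general splicing factor, is known to limit its own level through introns of its 3′UTR. Its 3 sites lay in the 3′UTR of 4487 nt, the longest among the 10 genes, and started 144, 221 and 560 nt after the stop codon. Sites 1 and 2 stood 56 nt apart. They were exonic in the coding transcripts SRSF1-201 and SRSF1-205 and in the NMD transcripts SRSF1-204 and SRSF1-206. They were removed with an intron in the NMD transcript SRSF1-207 (356 nt), and in the coding transcripts SRSF1-208 (372 nt) and SRSF1-209 (1468 nt). Site 3 lay beyond that intron, in exons of the 4 coding transcripts, and within the next one, of 921 nt, which SRSF1-204 and SRSF1-207 splice out (chr17:58004002-58004922). The third NMD transcript, SRSF1-206, does not splice out this intron, but its annotated end at chr17:58004849 lies just before site 3. No annotated NMD isoform of SRSF1 held site 3 in an exon, while SRSF1-204 and SRSF1-206 held sites 1 and 2. A second annotated protein-coding gene, ENSG00000266086, overlaps all 3 sites on the same strand.

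**Figure D3:**
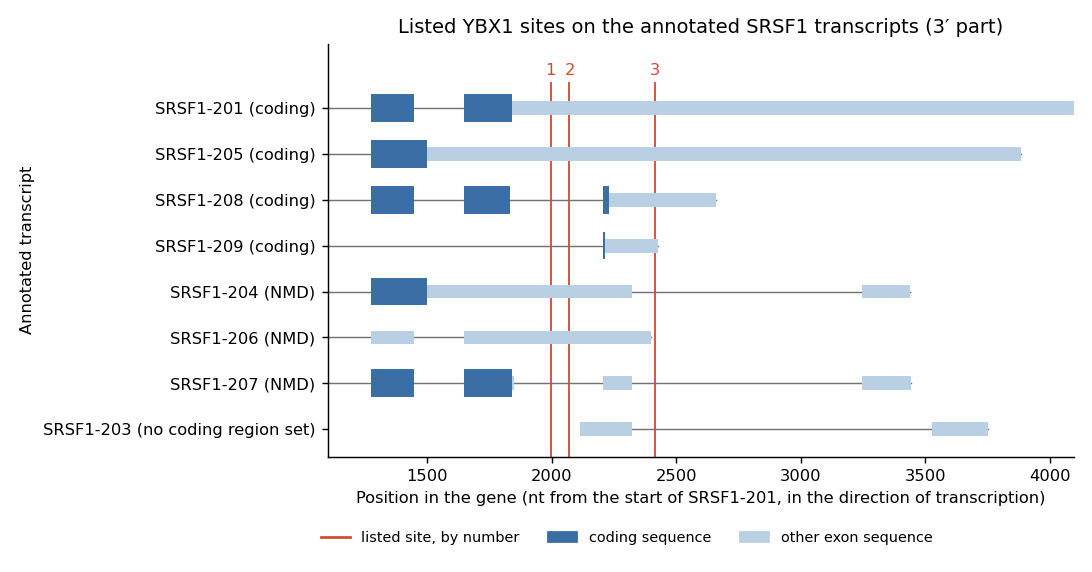
The 3′ part of the 8 annotated SRSF1 transcripts that reach it, in nt from the start of SRSF1-201, with coding sequence (dark), other exon sequence (light) and introns (grey lines); vertical red lines are the 3 listed sites. Sites 1 and 2 fall in an intron of SRSF1-207, SRSF1-208 and SRSF1-209, and site 3 in an intron of SRSF1-204, SRSF1-207 and SRSF1-203, for which no coding region is annotated.

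TRA2B (chr3:185914558-185938103, minus strand), which activates exons with GAA repeats and regulates its own poison exon, held a coding site and 2 sites in its 3′UTR. Site 1 covered codons 264 to 270 of 289, stop codon included, and lay in exon 8 of 9, an exon of 74 nt (chr3:185918365-185918438), with 7 nt before the site and 47 nt after it. In the NMD isoform TRA2B-205 the same exon is 3′UTR. Sites 2 and 3 started 109 and 482 nt after the stop codon in a 3′UTR of 3157 nt. Site 2 was exonic in 8 of 15 annotated transcripts, including TRA2B-205. Site 3 was exonic in 4, among them the coding transcript TRA2B-201, which ends 560 nt after the main stop codon, and lay past the ends of TRA2B-203 and TRA2B-205 at 387 and 385 nt. The poison exon of TRA2B had no listed site.

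SRSF6 (chr20:43457893-43466046, plus strand), an SR protein with a pair of RNA recognition motifs, had a single site 774 nt after the stop codon in a 3′UTR of 3180 nt. The site was exonic in 1 of 6 transcripts, SRSF6-201, and intronic in the coding transcripts SRSF6-203, SRSF6-204 and SRSF6-205. No noncoding isoform covered it, and the NMD isoform SRSF6-202 has its annotated end before it, in the same last exon. The protein-coding gene ENSG00000288000 overlaps it on the same strand.

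SON (chr21:33543038-33577481, plus strand), a large protein of nuclear speckles that aids splicing at weak splice sites and organises the speckles, held 4 of the 5 coding sites. Sites 1 to 4 were in coding sequence, all in exon 3, which at 5916 nt makes up 81.3% of the coding sequence. They covered codons 1442 to 1449, 1629 to 1636, 1667 to 1675 and 1819 to 1825 of 2427, stop codon included, within 1150 nt of each other. Coding sequence is 86.8% of the SON mRNA, and 4 of its 5 sites were coding. Exon 3 belongs to the NMD isoform SON-208 as coding sequence and is skipped in the NMD isoform SON-221 and in the coding transcripts SON-204 and SON-222. Site 5 started 1001 nt after the stop codon in a 3′UTR of 1057 nt, and ended 34 nt before the end of the main transcript.

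Apart from that of SON, the 3′UTR sites lay close to the stop codon. In SRSF1, SRSF3, SRSF6 and TRA2B the midpoints of all 8 sites lay in the first 25% of 3′UTRs of 3157 to 4487 nt, between 3.43% and 24.6% of the way along. Among the other listed sites in 3′UTRs of at least 3000 nt, 162 of 452 (35.8%) lay in the first 25%. The 8 member sites also lay within 800 nt of the stop codon, against 105 of those 452 (23.2%). Both limits lie just above the farthest of the 8 sites, that of SRSF6, with its midpoint 783 nt after the stop codon. The median 3′UTR was 3611 nt for the 8 sites and 4917 nt for the 452. The first 800 nt made up 21.7% of the 3′UTR for the 8 sites and 16.5% for the 452, on average. Over 3′UTRs of any length, 8 of 9 member sites (88.9%) lay within 800 nt, against 396 of 946 other sites (41.9%). There the first 800 nt made up 27.7% of the 3′UTR for the member sites and 37.1% for the others. This position was chosen for description after it was seen, the 8 sites share 4 mRNAs, and no test was made. Which ends of these 3′UTRs are used in HEK293 cells was not analysed here, and the annotated mRNA was taken at full length.

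The genes with sites had longer mRNAs than those without. Main mRNAs were 4178 to 8393 nt long in SRSF1, SRSF3, SRSF6, TRA2B and SON (median 4353 nt), against 1496 to 3959 nt in SRSF2, SRSF5, SRSF7, SRSF11 and TRA2A (median 1888 nt), and the ranges did not overlap. The 3′UTR lengths did overlap, at 1057 to 4487 nt in the genes with sites, against 544 to 2247 nt in the genes without. Over all protein-coding genes the median main mRNA was 3943 nt in those with a site, against 2804 nt in those without. The remaining SR protein genes did not follow the order by length. SRSF9, with an mRNA of 1152 nt, had 1 coding site, and SRSF10, with 7656 nt, had 1 site in its 3′UTR, while SRSF8 (4307 nt), SRSF12 (3589 nt) and SRSF4 (2300 nt) had none. Sites per kb of mRNA in the 5 genes were 0.23 in SRSF6, 0.473 in SRSF3, 0.561 in SRSF1, 0.596 in SON and 0.718 in TRA2B, the SRSF3 value resting on the 2 sites in its main mRNA and leaving out the poison exon site.

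**Figure D4:**
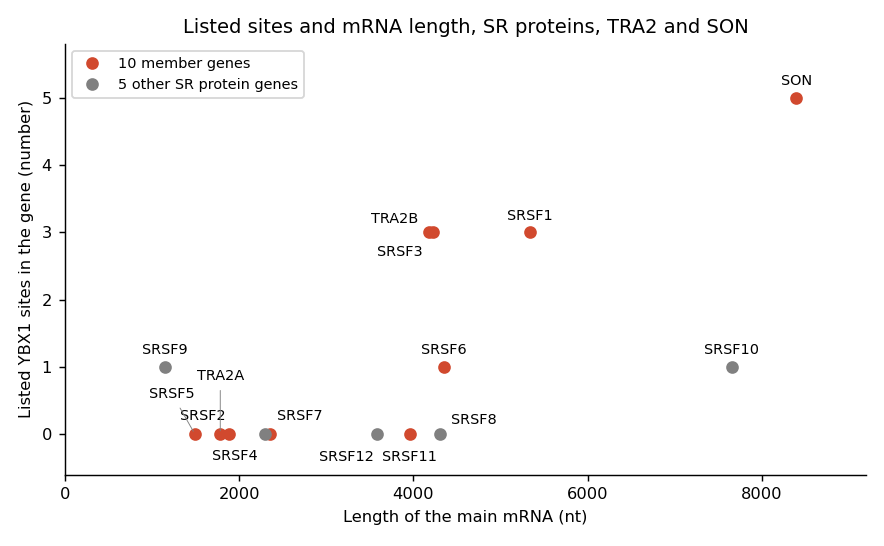
Number of listed sites in each gene against the length of its main mRNA in nt, for the 10 member genes (red) and the 5 other SR protein genes (grey). The 5 member genes with sites are all longer than the 5 without, while SRSF9 has a site at 1152 nt and SRSF8 has none at 4307 nt.

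The remaining SR members without a site were of varied structure. SRSF2, an SR protein that stays in the nucleus and whose own NMD isoforms limit its level, has an mRNA of 1888 nt with a 3′UTR of 1051 nt. SRSF5, a small SR protein with a pair of RNA recognition motifs, has the shortest mRNA of the 10 genes, 1496 nt, with a 3′UTR of 544 nt. SRSF7, the close relative of SRSF3 with an added zinc knuckle and a role in mRNA export, has an mRNA of 2356 nt with a 3′UTR of 1534 nt, against 4228 and 3611 nt in SRSF3. SRSF11, a more distant relative of the family, has an mRNA of 3959 nt and a 3′UTR of 2247 nt, and so a longer 3′UTR than SON, which had 5 sites.

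The paired TRA2 genes, whose proteins bind the same kind of RNA, differed: TRA2B had 3 sites and TRA2A none. The TRA2B mRNA is 4178 nt long with a 3′UTR of 3157 nt, and that of TRA2A is 1785 nt with a 3′UTR of 779 nt. The part of RNA level and of length in this difference was not tested.

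In base content the member sites held somewhat less C and A and more T than the other sites, on average. C and A made up 57.8% ± 7.0 (SD) of the bases of the 15 member sites, against 60.4% ± 12.1 (SD) of 2034 other sites, with 5 of 15 member sites above the median of the others. Over bases other than G the shares were 62.3% against 65.6%, with 3 of 15 above that median. These differences were not tested. T made up 35.1% against 31.4%, C 26.2% against 28.4%, A 31.6% against 32% and G 7.05% against 8.2%. The 3 SRSF3 sites had the highest shares of C and A, at 69.2%, 71.4% and 65.4%, and SON site 1 the lowest, at 47.6%. Member sites were 18 to 28 nt wide with a median of 21 nt, against 22 nt in the others, and held 5 to 12 T each, the bases at which 4-thiouridine can crosslink. Before sequencing, the crosslinked complexes were cut from a gel by size.

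**Figure D5:**
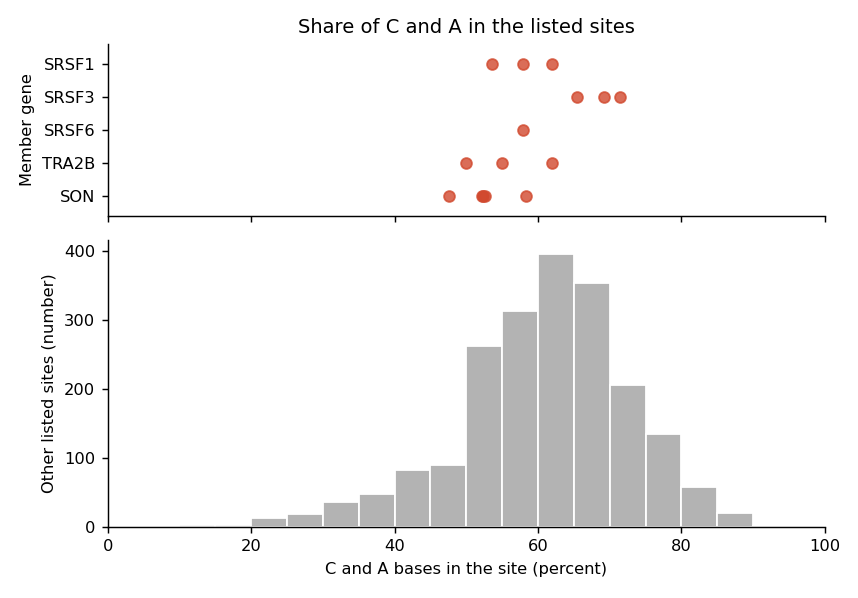
Share of C and A bases in percent, for each of the 15 member sites by gene (upper panel, points) and as the number of other listed sites in bins of 5 points (lower panel, bars). Member sites run from 47.6% to 71.4%, within the bulk of the other sites.

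The C- and A-rich words differed in how often they stood in member sites, and no difference was tested. At least 1 of the 5 words stood in 11 of 15 member sites (73.3%), against 1429 of 2034 other sites (70.3%). AACT was in 5 member sites, in SRSF1, SRSF3, SRSF6 and SON (33.3%, against 28.2%). CATC was in 3 member sites (20%, against 25%). The remaining words were in 2 member sites each (13.3%), against 26.7% of the other sites for CAAC, with 31.0% for AACA, and with 14.6% for CACC. CAAC or CATC was in 4 member sites (26.7%), against 44.4% of the other sites. Both CACC sites were in TRA2B. The purine-rich words GAA and GGA, and the TRA2 and SR enhancer word GAAGAA, were in no member site, against 4.18%, 6.24% and 0.0983% of the other sites. Each of these words needs a G before the last base. In 11 of 15 member sites there was no such G, so the absence of the words shows little about enhancers. RNase T1 cuts after G, and 14 of 15 member sites ended in G (93.3%, against 87.6% of the other sites) and 13 followed one (86.7%, against 79.1%). The G at the end partly restates how the last base was read, which was set where that G lies. No G stood before the last base in 11 of 15 member sites (73.3%), against 1578 of 2034 other sites (77.6%).

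Windows as wide as the site were taken from its exon at a distance of 100 nt, and member sites held more C and A than these. The 14 sites with such a window averaged 58.0% C and A, against 48.7% in the windows, an excess of 9.32 points with 11 of 14 sites higher. Over bases other than G the excess was 3.19 points, with a median of -0.159 points and 7 of 14 sites higher. In 1320 other sites the excess was 12.7 points over all bases. Over bases other than G it was 3.14 points there, with a median of 3.18 points and 782 sites higher. Within the members the excess over all bases was 28.9 points at SRSF1 site 2, 31.0 and 28.8 points at SRSF3 sites 2 and 3, and -16.7 points at SON site 3. Windows were also cut at G as RNase T1 cuts, beginning after one G and ending in another. They held as many G before the last base as the site did. Against these windows the member excess was -0.243 points with 7 of 14 sites higher, while that of 1250 other sites was 4.34 points. These values were not tested, and the second set of windows was chosen after the data were seen.

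Other genes of the splicing and SR protein pathways also held sites. Of the 5 remaining SR protein genes 2 had a site (SRSF9 and SRSF10, 1 each), and of 33 genes of SR-related splicing proteins 15 had 21 sites in all. The most in that group were 3 coding sites in SRRM2, which like SON is a core protein of nuclear speckles, 3 sites in the 3′UTR of BCLAF1, 2 coding sites in SCAF4, which binds RNA polymerase II, and 1 coding and 1 3′UTR site in THRAP3, a close relative of BCLAF1. Of 15 genes of SR protein kinases and nuclear import 2 had a site, DYRK1A in its 3′UTR and CDK12 in its coding sequence. None of 16 genes of NMD factors had one. Over the 4 lists 19 of 69 genes had a site (27.5%), beside the 6.81% of all protein-coding genes. The lists were drawn up with earlier results of these data known, and their share was not tested.

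The authors' own annotation placed the member sites otherwise. It called 6 of the 15 non-coding, 5 exon, 3 3′UTR and 1 TTS, the end of a transcript, and of the other sites 5.49% were called non-coding. The 6 were SRSF1 sites 1 and 2, all 3 SRSF3 sites and the SRSF6 site, so that 5 sites in annotated 3′UTRs of coding transcripts are among them. For all 6, the transcript named in the authors' class belongs to the same member gene. SRSF1 sites 1 and 2 and the SRSF6 site carried no gene name in the list, and a count by the authors' names would give 12 sites in 4 genes. SON site 5 was called TTS.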

How the data were processed

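YBX1 PAR-CLIP was done in HEK293 cells in 2 replicates. Per the labels and methods, the authors trimmed reads with cutadapt 1.4.1, used the PARA-suite pipeline for alignment to hg38 and transcripts, ran BMix (defaults, by strand) on both replicates together and assigned names and classes with HOMER. The deposited list holds positions, strands, names and classes; no counts or scores are in it, so precision per site is unknown.

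Sites were read with the last base 1 before the listed end, where the G left by RNase T1 lies on both strands. Each was placed by its midpoint and strand in GENCODE release 44 (python 3.11.15, pysam 0.24.0), and every gene whose span held it counted. Classes came from the MANE Select transcript. For sites in its introns, a poison exon is an exon of an NMD or other noncoding isoform with introns on both sides. A retained intron is one an exon runs through, or one where an exon of a retained-intron isoform covers the site. Base content leaves out 5 sites wider than 60 nt. T1-cut windows begin after a G, end in G and hold as many G before the last base as the site. They differ from it by at most 3 nt in width.

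The members and lists were chosen with earlier results of these data known. The text names all 10 members with every site, the up to 4 genes with the most sites in each of 4 pathway lists, and genes sharing or overlapping a member site; GLA, MELTF, METTL15 and the SR genes without sites were named after their values were seen. Nothing was tested. Classes and windows were checked on simulated data. Protein sequences were not used here. Alternatives were overlap, strand, width, merged sites, the authors' names and classes, transcript choice, window distance and site ends.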

Additional observations from a re-analysis of the deposited data

How the results depend on the processing

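Of 52 alternative values, 40 stayed within the limit set for a change, 11 moved and 1 changed sign. The limit was 1.5 times for counts, the Wilson 95% interval for the share of genes, and 1 SD over sites for base content and width, which is wide. With only sites wider than the median of 22 nt, 5 sites in 3 member genes were left, 1 coding, 3 in 3′UTRs and 1 in the poison exon, and 11 pathway genes had a site. With all transcripts weighed at once, the SRSF3 poison exon site counted as 3′UTR, leaving 0 sites in poison exons or retained introns, whichever of coding exon and 3′UTR came first. Counting exons shared with NMD or retained-intron isoforms gave 13. The authors' class put 3 sites in 3′UTRs. The share of protein-coding genes with a site was 6.18% with introns left out and 7.68% without regard to strand. The excess of C and A over windows was -0.243 points against RNase T1-cut windows, added after seeing the data. It was 3.19 points over bases other than G, with 7 of 14 sites higher, and 11.5 points at 300 nt. Any overlap, both strands, merging within 50 nt and sequences that occur once in the genome each left the 15 sites in 5 genes. No paired analysis was possible because the result comes from no test and both replicates were pooled into 1 list. No replicate could be left out for the same reason. Without counts, a gene with no listed site cannot be told apart from one whose RNA was too scarce to give one.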
